A study of Mus musculus with 24 samples.

Results

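The replication-dependent histone genes of the mouse were followed through natural killer (NK) cells of 6 groups. They were taken as the protein-coding genes whose symbol starts with Hist1h, Hist2h, Hist3h or Hist4h, which gave 68 of the 38215 genes in the deposited table. Of these, 6 encode the linker histone H1, 19 encode H2A, 18 encode H2B, 12 encode H3 and 13 encode H4. The Hist1 cluster on chromosome 13 holds 55 of them, the Hist2 cluster on chromosome 3 holds 10, the Hist3 cluster on chromosome 11 holds 2, and Hist4h4 lies alone on chromosome 6.

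The 24 libraries were made from poly(A) RNA, with 4 labelled biological replicates in each group. The groups were NK cells from tumour-bearing lung of KO and of WT mice, from IL-15-treated spleen of KO and of WT mice, and from naive spleen of KO and of WT mice, where KO stands for loss of FcRγ, the product of Fcer1g. All 6 groups are labelled NK cells, and the lung samples carry the treatment label Naive. The strain, age and sex of the mice, how the allele was made, how IL-15 was given, which tumour was used and whether a library is 1 animal were not stated by the labels. The p-values therefore describe the spread among the labelled replicates.

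Histone genes of this kind supply the protein that packages new DNA, and their messages accumulate in S phase and are destroyed when replication ends. Most are unusual in having no intron and no poly(A) tail. The 3′ end is cut just after a short stem-loop, which the stem-loop binding protein (SLBP) holds through processing, translation and decay. Selection for poly(A) therefore misses most of this message, and what it keeps can come from transcripts that run past the stem-loop to an ordinary poly(A) site, from oligo(A) tails or from runs of A inside the message. The levels below describe that captured RNA and not the whole histone message of a cell. Bulk libraries also cannot tell apart fewer cells of a type and less RNA per cell.

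A perfectly paired stem-loop of 16 bases was found in the annotated 3′ untranslated region of 46 genes, 22 to 59 bases after the stop codon with a median of 32. The variants are shown because they are the element that sets this family apart. The sequences are from the GENCODE M21 transcripts (GRCm38), 5′ to 3′, with the paired stem in capitals. The first is that of 26 genes of H1, H2A, H2B and H3, among them Hist1h1c, Hist1h2ap and Hist3h2a. The next is that of 6 genes of H1, H2B and H3, the third that of 7 H4 genes including Hist1h4m and Hist1h4n, and the last that of the H4 genes Hist1h4i and Hist2h4.
Stem-loop of Hist1h2ap: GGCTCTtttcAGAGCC
Stem-loop of Hist1h3c: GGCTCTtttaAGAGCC
Stem-loop of Hist1h4m: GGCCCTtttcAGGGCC
Stem-loop of Hist1h4i: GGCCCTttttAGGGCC

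The annotated ends fell into 2 kinds. In 28 genes the longest annotated 3′ untranslated region had at least 150 bases, here called an extended end, and 21 of these held the poly(A) signal letters AATAAA or ATTAAA past the stem-loop, or anywhere in it where no stem-loop was found. In 38 genes it was shorter, here called a short end, and 2 genes had no coding model in the annotation. These classes are those of GENCODE M21, while the counts were made on the gene models of the deposited table. There Hist1h4d spans 393 bases against 1138 exon bases in GENCODE M21, and Hist1h1e 748 against 1930. Some short-ended genes, such as Hist1h3h and Hist1h1b, have 0 annotated bases after the stop codon, so their real end is not known. Shares and calls by end class carry both limits. Hist1h2ap has a short end, and a run of 12 A stands directly before its stem-loop with 0 bases between. The stretch is shown because this gene had the highest level per length of all members, with the run in capitals. A run of at least 12 A was found in 3 members, Hist1h2ac, Hist1h2ao and Hist1h2ap.
Hist1h2ap: ccgaaaagAAAAAAAAAAAAggctcttt

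Library totals ranged from 9.68 M to 32.10 M counts (1 M is 1000000 counts), and the 2 libraries under 15 M were KO naive replicate 1 and WT lung replicate 1. Fcer1g averaged 14.3 CPM in KO lung and 595 in WT lung, 5.65 in KO IL-15 and 274 in WT IL-15 spleen, and 3.77 in KO naive and 730 in WT naive spleen, where CPM is counts per 1000000 counts of the TMM-scaled library total. The 10 NK cell markers were detected in all 24 libraries, and summed to 15100 CPM in KO lung and 17380 in WT lung, 9986 in KO IL-15 and 10760 in WT IL-15 spleen, and 19320 in KO naive and 22870 in WT naive spleen on average. The 9 T cell markers summed to between 46.4 and 206 CPM, most of it Cd28. Among the 7 monocyte, macrophage or dendritic cell markers used Itgax gave most in spleen.

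The histone genes together took a small share of the reads. Their summed level was 349 ± 33.0 CPM in KO lung and 418 ± 112 in WT lung, 351 ± 39.9 in KO IL-15 and 353 ± 106 in WT IL-15 spleen, and 135 ± 8.29 in KO naive and 207 ± 25.2 in WT naive spleen (mean ± SD, n = 4). That is 0.0135% of counts on average in KO naive spleen, the lowest group, and 0.0392% in WT lung, the highest. A read was seen for 59 to 61 members per library in KO IL-15 spleen but for 19 to 36 in KO naive spleen. Over all 24 libraries 25 members averaged 1 CPM or more and 43 less, 10 had a read in every library, and Hist1h2aa, Hist1h2ba and Hist1h2al had none.

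**Figure D1:**
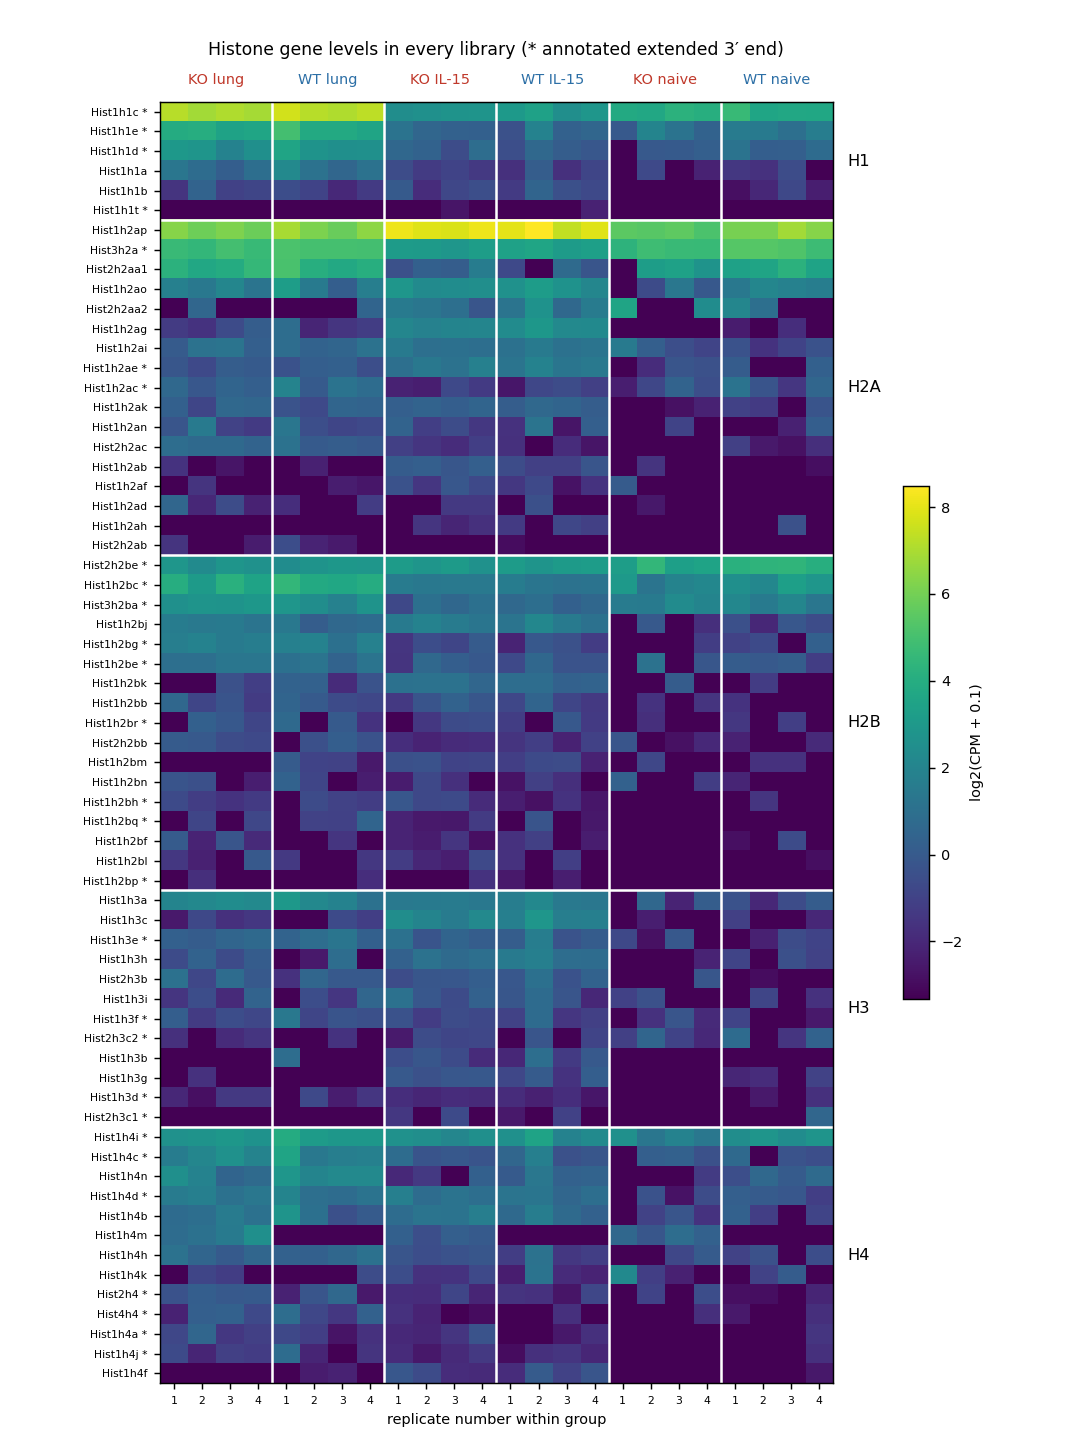
Level of the 65 histone genes with a read, as log2(CPM + 0.1), in each of the 24 libraries (columns, by group and replicate number), grouped by histone class and ordered by mean level; an asterisk marks an annotated extended 3′ end. Hist1h2ap is brightest in IL-15 spleen, Hist1h1c in lung, and Hist1h4m is dark in all WT libraries.

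Many of these genes are near copies. Of the 68 members, 32 shared at least 50% of their 50-base windows with another gene and 9 shared under 10%. Reads from shared stretches were divided among genes by the authors' counting, so values of single members such as Hist1h2ap and Hist1h2ao, which shared over 93% of windows with each other, are uncertain. Their annotated transcripts were identical over 452 aligned bases. Sums over such pairs do not depend on the division within the pair, but some windows are shared with further genes. Hist2h2aa1 shared 100% and Hist2h2aa2 89.4% of windows with Gm20634, and Hist1h2ag shared 71.8% with Hist1h2ao. Hist3h2a shared 31.5% of windows with Trim17, which is not a member.

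Per length, Hist1h2ap led by a wide margin. This H2A gene (ENSMUSG00000094777, chr13:21833057-21833575, minus strand, GRCm38) averaged 274 CPM per kilobase over all libraries. Next came the linker histone gene Hist1h1c (chr13:23738807-23740366, plus strand) with 35.8, then the H2A genes Hist2h2aa1 with 19.0 and Hist3h2a with 11.6, and the H4 gene Hist1h4i with 11.8 CPM per kilobase. The highest H2B gene was Hist1h2bc with 6.71 and the highest H3 gene Hist1h3a with 5.02 CPM per kilobase. Of these, Hist1h1c, Hist3h2a, Hist1h4i and Hist1h2bc have extended ends.

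The makeup of the captured histone RNA differed by state. Genes with extended ends gave 65.4% of the summed CPM in KO lung and 67.4% in WT lung. Under IL-15 they gave 13.3% in KO and 14.8% in WT spleen, and in naive spleen 53.9% in KO and 48.1% in WT. No IL-15 library exceeded 16.7% and no other library lay below 40.7%. Hist1h2ap alone gave 74.1% in KO and 71.8% in WT spleen under IL-15, against 31.5% in KO and 39.8% in WT naive spleen, and 19.3% in KO and 19.95% in WT lung.

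**Figure D2:**
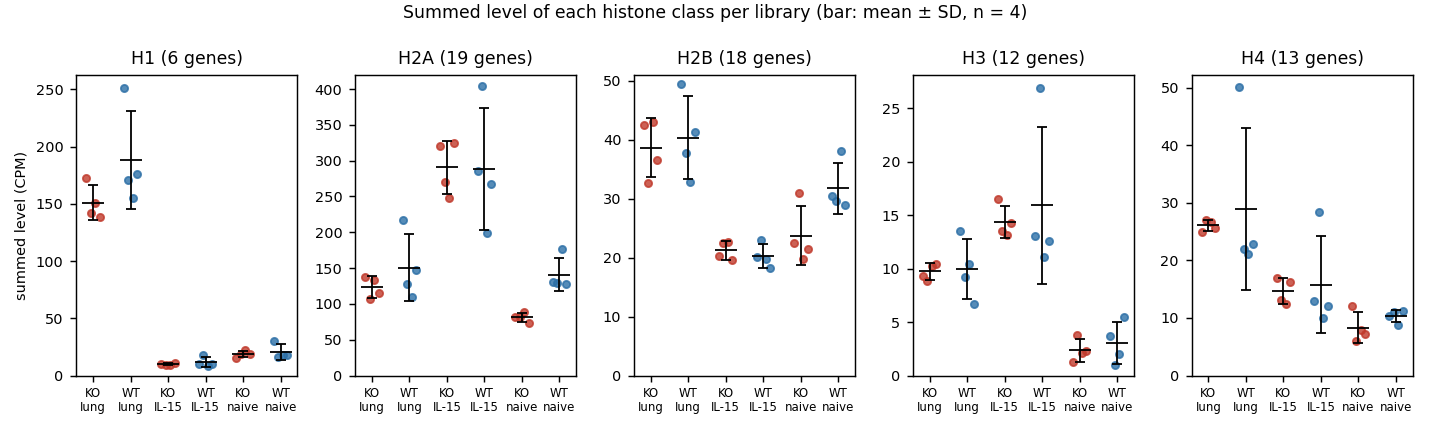
Summed CPM of each histone class in every library (points, KO red and WT blue), with mean ± SD (n = 4 per group). The mean H1 sum is highest in lung (151 CPM in KO and 188 in WT), and the mean H2A and H3 sums are highest in IL-15 spleen (291 CPM in KO and 289 in WT for H2A).

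The comparison of IL-15-treated with naive spleen asks how the captured histone RNA differs with the cytokine, which is known to drive NK cells into division. In both genotypes Hist1h2ap and other H2A and H3 genes rose, while Hist3h2a, Hist1h1c, Hist2h2be, Hist3h2ba and Hist2h2aa1 fell. With edgeR's quasi-likelihood test and an adjusted p under 0.05, 16 members rose and 5 fell of 48 tested in KO, and 15 rose and 6 fell of 48 in WT. Over all genes tested 41.7% were called in KO (20.7% higher and 21% lower) and 52.4% in WT (26.4% higher and 26% lower), so calls were common. The members' median log2 change was 1.88 in KO and 1.49 in WT, against −0.007 and −0.012 over all genes tested, and stayed the same when members at 0 counts in 1 group were set at their bound. The filter on low counts had kept some members only through the IL-15 libraries, so these counts and medians do not stand for all 68 members. Of the members that rose, 3 of 16 in KO and 5 of 15 in WT stood at 0.5 CPM or more in both groups, and all that fell did. Risen in both genotypes were 10 members, 62.5% of the KO and 66.7% of the WT risers, and fallen in both were 5, while 0 were called in opposite directions. The share of all genes tested that was called in both genotypes is not given, so this overlap is not read as a trait of the family.

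Hist1h2ap stood at 287, 242, 221 and 292 CPM in the KO IL-15 libraries, against 45.6, 42.0, 47.5 and 34.8 CPM in KO naive spleen. In WT it stood at 254, 357, 169 and 236 CPM in IL-15 spleen and at 67.3, 69.5, 114 and 80.8 CPM in naive spleen. The groups did not overlap in either genotype. The log2 change was 2.55 ± 0.21 in KO (± standard error, adjusted p = 2.0e-08) and 1.53 ± 0.21 in WT (adjusted p = 5.3e-06), by edgeR. Summed with its near copy Hist1h2ao, the pair averaged 266 ± 35.5 CPM in KO IL-15 and 43.4 ± 5.98 in KO naive spleen, and 260 ± 79.0 CPM in WT IL-15 and 86.2 ± 21.6 in WT naive spleen (SD, n = 4).

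The H3 genes summed to 14.3 ± 1.50 CPM in KO IL-15 and 2.36 ± 1.06 in KO naive spleen, and to 15.9 ± 7.35 CPM in WT IL-15 and 3.05 ± 1.94 in WT naive spleen (SD, n = 4). Hist1h3c, an H3 gene with a short end, stood at 5.44, 3.85, 2.86 and 4.55 CPM in KO IL-15 spleen, with 1 of the 4 KO naive libraries above 0 at 0.097 CPM. In WT it stood at 3.35, 7.24, 3.19 and 3.32 CPM in IL-15 spleen and at 0.365, 0, 0 and 0.151 CPM in naive spleen. It rose by 6.68 ± 0.95 log2 units in KO (adjusted p = 1.69e-05) and by 4.91 ± 0.79 in WT (adjusted p = 4.1e-05), by edgeR, fitted values that depend on very few naive reads. Of 10 H3 genes tested, 5 rose in KO and 5 in WT, and 0 fell. Over all genes tested 20.7% were higher in KO and 26.4% in WT. Hist1h3a, the highest H3 gene per length, stood at 2.60, 2.78, 2.89 and 2.51 CPM in KO IL-15 and at 0, 1.44, 0.127 and 1.02 CPM in KO naive spleen, and at 3.08, 4.44, 2.62 and 2.45 CPM in WT IL-15 and 0.697, 0.150, 0.569 and 0.972 CPM in WT naive spleen. It rose by 1.90 ± 0.70 in KO (adjusted p = 0.034) and 2.31 ± 0.70 in WT (adjusted p = 0.0099), and the KO call was lost in 6 of the alternative fits. Hist1h3h, with 93.9% of its windows shared, rose by 5.35 ± 1.03 in KO and 2.59 ± 0.79 in WT. Hist1h3b had no naive read and was at least 14.9-fold higher in KO and 24.5-fold higher in WT under IL-15, with the naive group set at a floor of 3 counts in all. The H2A gene Hist1h2ag, also without a read in KO naive spleen, was at least 110-fold higher in KO IL-15 spleen, and 78.9% of its windows are shared.

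In the other classes the calls were mixed, and the small counts per class are to be read against all genes tested. Of those, 20.7% were higher and 21% lower in KO, and 26.4% higher and 26% lower in WT. Among these classes only the H2A rises lay well above that share. Of 13 tested H2A genes 6 rose and 2 fell in each genotype. Of 10 H2B genes 1 rose and 2 fell in KO, and 3 rose and 3 fell in WT. The H2B gene Hist1h2bj stood at 2.83, 3.63, 2.91 and 2.29 CPM in KO IL-15 and at 0, 0.885, 0 and 0.198 CPM in KO naive spleen, and rose by 3.21 ± 0.80 in KO and 2.31 ± 0.75 in WT. Hist1h2bc, the H2B gene with the highest level per length, stood at 2.98, 2.32, 2.09 and 2.17 CPM in WT IL-15 and 5.70, 4.29, 10.03 and 7.36 CPM in WT naive spleen. It fell by 1.60 ± 0.35 in WT (adjusted p = 0.00083) and differed by −0.83 ± 0.35 in KO (adjusted p = 0.063). Of 10 H4 genes 3 rose in KO and 1 in WT, and of 5 H1 genes 1 rose and 1 fell in KO and 0 rose and 1 fell in WT.

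Most of the genes that fell have extended ends, though genes with extended ends fell about as often as all genes tested. Hist3h2a, an H2A gene whose annotated message runs 1643 bases past the stem-loop, stood at 8.82, 8.52, 7.32 and 9.25 CPM in KO IL-15 spleen, against 19.8, 27.7, 25.7 and 24.7 CPM in KO naive spleen. In WT it stood at 10.5, 12.2, 8.83 and 10.03 CPM under IL-15 and at 41.1, 40.7, 37.8 and 27.4 CPM in naive spleen. It fell by 1.60 ± 0.16 log2 units in KO (adjusted p = 2.88e-07) and by 1.90 ± 0.16 in WT (adjusted p = 2.28e-08), with no overlap of libraries. Hist1h1c, which encodes a linker histone, fell by 1.43 ± 0.24 in KO and 1.09 ± 0.24 in WT, and the H2B genes Hist3h2ba and Hist2h2be fell by 1.39 ± 0.41 and 0.86 ± 0.23 in KO and by 1.32 ± 0.41 and 1.28 ± 0.23 in WT. Hist2h2be, named here after its values were seen, shares no 50-base window with another gene. It stood at 8.94, 7.005, 8.53 and 6.13 CPM in KO IL-15 and 9.35, 22.2, 9.95 and 11.23 CPM in KO naive spleen, and at 8.90, 6.72, 8.40 and 8.95 CPM in WT IL-15 and 17.6, 20.1, 20.96 and 16.9 CPM in WT naive spleen. The fifth, Hist2h2aa1, has a short annotated end and an identical copy over 528 bases, Hist2h2aa2. Hist2h2aa1 fell by 2.28 ± 0.78 in KO (adjusted p = 0.025), a call lost in 7 of the alternative fits, and by 4.26 ± 0.85 in WT (adjusted p = 0.00038). The pair together averaged 3.40 ± 0.38 CPM in KO IL-15 and 10.9 ± 1.12 in KO naive spleen, and 3.95 ± 1.61 CPM in WT IL-15 and 14.8 ± 3.37 in WT naive spleen.

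Split by annotated end, 2 of 19 tested genes with extended ends rose and 4 fell in KO, and 1 rose and 5 fell in WT. Of 29 tested genes with short ends, 14 rose and 1 fell in each genotype. Over all genes tested 20.7% were higher and 21% lower in KO, and 26.4% higher and 26% lower in WT. The falls among extended ends were thus near the general share. The median log2 change was 0.23 in KO and −0.16 in WT for extended ends, and 2.43 in KO and 1.81 in WT for short ends. Without Hist1h2ap and Hist1h2ao, the short-ended members summed to 37.9 ± 2.46 CPM in KO IL-15 and 18.5 ± 3.40 in KO naive spleen, and to 40.6 ± 16.1 CPM in WT IL-15 and 21.7 ± 3.38 in WT naive spleen.

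**Figure D3:**
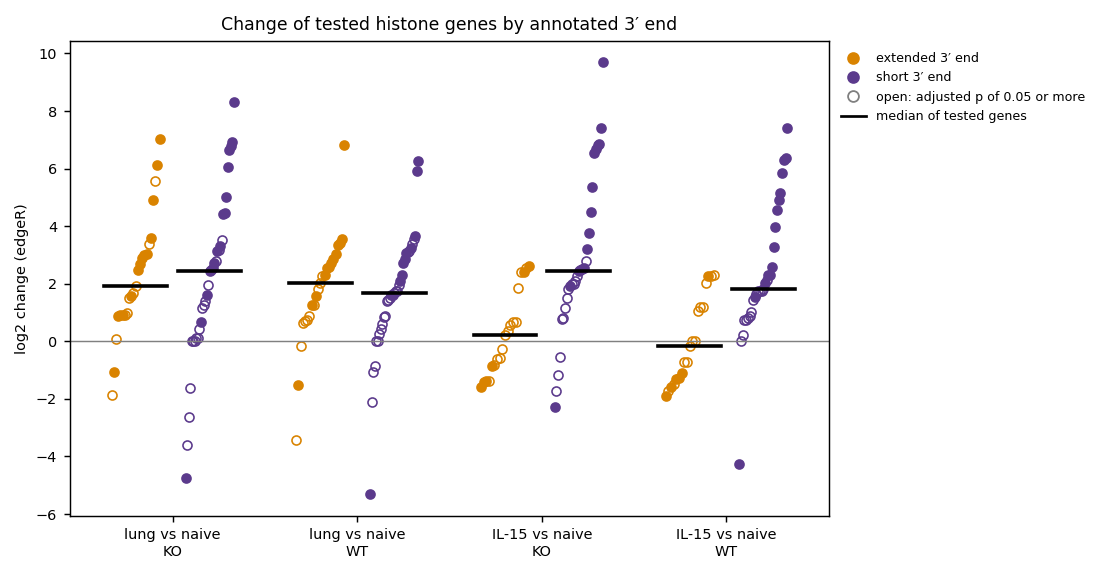
Log2 change from edgeR (y axis) of each tested histone gene for lung against naive and IL-15 against naive spleen in KO and WT, split into extended (orange) and short (purple) annotated 3′ ends; filled points passed an adjusted p of 0.05, bars are medians, and genes with no coding model are left out. Under IL-15 the medians are 0.23 and −0.16 for extended and 2.43 and 1.81 for short ends in KO and WT, while in lung they are 1.91 and 2.04 for extended and 2.44 and 1.67 for short ends. The extreme points have almost no reads on 1 side.

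Genes that work with histones were followed as lists. Their counts are to be read against all genes tested. Of those, 20.7% were higher and 21% lower in KO, and 26.4% higher and 26% lower in WT. All 25 tested genes of S phase DNA replication rose under IL-15 in both genotypes, among them Rrm2, a subunit of ribonucleotide reductase, by 3.64 ± 0.15 in KO and 3.46 ± 0.15 log2 units in WT. Of 13 genes listed for histone gene transcription, 11 rose in KO and 12 in WT and 0 fell, led by the cyclin gene Ccna2 with 4.45 ± 0.22 in KO and 4.05 ± 0.22 in WT. That list also holds general cell cycle genes such as Ccna2, Cdc25a and E2f1, so its rises are not particular to histone genes. Npat, the coactivator at the histone clusters, rose by 0.68 ± 0.19 in KO and 0.90 ± 0.19 in WT. Of 21 chaperone and import genes, 14 rose and 1 fell in KO and 15 rose and 3 fell in WT, Chaf1a of the CAF-1 complex by 2.85 ± 0.22 in KO and 3.89 ± 0.23 in WT. The 20 genes of histone message processing and decay went both ways, with 8 up and 2 down in KO and 5 up and 5 down in WT. Slbp, whose protein binds the stem-loop, rose by 0.36 ± 0.13 in KO (adjusted p = 0.032) and differed by 0.06 ± 0.13 in WT (adjusted p = 0.73). Npat and Slbp are named for their role and not by the rule. Of 10 tested histone genes made outside S phase, 3 rose and 3 fell in KO and 4 rose and 4 fell in WT. The centromeric H3 gene Cenpa rose by 2.58 ± 0.18 in KO and 2.47 ± 0.18 in WT, and the variant H2A gene H2afz fell by 1.02 ± 0.13 in KO and 1.25 ± 0.13 in WT.

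Markers of NK cells and of other cells also differed between these groups. Of the 10 NK cell markers 1 rose and 9 fell under IL-15 in each genotype. Of 6 tested B cell markers 6 fell in KO and 2 in WT, and their sums were 127 to 140 CPM in KO IL-15 and 156 to 214 in KO naive spleen, and 118 to 139 CPM in WT IL-15 and 178 to 217 in WT naive spleen, most of it Ighm. The monocyte, macrophage or dendritic cell markers summed to 413 to 546 CPM in KO IL-15 and 720 to 933 in KO naive spleen, and to 394 to 564 CPM in WT IL-15 and 499 to 714 in WT naive spleen. The T cell markers summed to 55.3 to 84.7 CPM in KO IL-15 and 138 to 206 in KO naive spleen, and to 46.4 to 78.2 CPM in WT IL-15 and 101 to 147 in WT naive spleen. The erythroid or megakaryocyte markers summed to at most 0.415 CPM in IL-15 spleen of either genotype, and to 5.59 to 24.6 CPM in KO naive and 6.38 to 15.9 in WT naive spleen. Their part in the histone result was not tested.

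The comparison of tumour-bearing lung with naive spleen differs in tissue and in tumour at once, and these cannot be told apart. Linker histone genes rose most plainly, and H4 and H2B genes such as Hist1h4c and Hist1h2bc rose with them, while Hist2h2be fell. With edgeR, 27 members rose and 2 fell of 57 tested in KO, and 24 rose and 2 fell of 57 in WT. Over all genes tested 42.4% were called in KO (24.3% higher and 18.1% lower) and 49.2% in WT (29.2% higher and 20% lower). The median log2 change of the tested members was 1.94 in KO and 1.76 in WT, and 1.91 and 1.75 with members at 0 counts in 1 group set at their bound, against 0.05 and 0.08 over all genes tested. The filter over all 24 libraries had kept some members only through groups where they are high, so these values do not stand for all members. With the compared groups fitted alone, 18 rose and 1 fell of 34 tested in KO and 15 rose and 1 fell of 30 in WT. Of the risers, 10 of 27 in KO and 11 of 24 in WT stood at 0.5 CPM or more in both groups. Risen in both genotypes were 16 members, 59.3% of the KO and 66.7% of the WT risers, again without a share over all genes tested to set beside it. With a filter at a mean of 1 CPM, 15 rose and 1 fell of 25 tested in KO and 14 rose and 1 fell of 25 in WT.

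Hist1h1c stood at 147, 116, 134 and 118 CPM in KO lung, against 14.1, 13.3, 19.1 and 16.8 CPM in KO naive spleen. In WT it stood at 203, 147, 133 and 156 CPM in lung and at 25.03, 12.1, 13.5 and 12.96 CPM in naive spleen. Every lung library lay far above every naive library. The gene rose by 3.02 ± 0.21 log2 units in KO (adjusted p = 4.26e-11) and by 3.33 ± 0.21 in WT (adjusted p = 4.17e-12), by edgeR. It gave 36.9% of the summed histone CPM in KO lung and 38.8% in WT lung, against 11.8% in KO naive and 7.75% in WT naive spleen. Only 8.54% of its windows are shared, few for this family.

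The other linker histone genes followed. Hist1h1e stood at 15.3, 16.1, 11 and 12.3 CPM in KO lung and at 0.877, 3.96, 2.14 and 1.21 CPM in KO naive spleen. In WT it stood at 31.1, 14.1, 14.5 and 11.6 CPM in lung and at 2.93, 2.81, 1.88 and 3.09 CPM in naive spleen. It rose by 2.69 ± 0.44 in KO and 2.72 ± 0.44 in WT, and Hist1h1d and Hist1h1a rose by 2.98 ± 0.52 and 3.32 ± 0.94 in KO and by 2.31 ± 0.49 and 3.23 ± 0.91 in WT. Of 5 H1 genes tested, all rose in KO and 4 in WT, against 24.3% and 29.2% of all genes tested. The exception in WT was Hist1h1b, at 0.588, 0.421, 0.159 and 0.308 CPM in lung and 0.0389, 0.150, 0.480 and 0.0989 CPM in naive spleen.

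Among core histones, 7 of 12 tested H4 genes rose in KO and 6 in WT, and 7 of 16 H2B genes rose and 2 fell in KO with 6 and 1 in WT. Over all genes tested 24.3% were higher and 18.1% lower in KO, and 29.2% higher and 20% lower in WT. The H4 gene Hist1h4c stood at 3.00, 4.12, 6.22 and 3.81 CPM in KO lung and at 0, 1.07, 1.15 and 0.666 CPM in KO naive spleen, and rose by 2.48 ± 0.78 (adjusted p = 0.012). In WT it rose by 2.87 ± 0.79 (adjusted p = 0.0042), with WT lung replicate 1 at 11.9 CPM and the other WT lung libraries between 2.58 and 3.38. Hist1h4d, another H4 gene with an extended end, stood at 2.88, 3.28, 2.04 and 2.48 CPM in KO lung and at 0, 0.693, 0.0476 and 0.567 CPM in KO naive spleen. It rose by 2.91 ± 0.61 in KO and 1.56 ± 0.57 in WT, where the call was lost without WT naive replicate 4 or WT lung replicate 1. Of 10 H3 genes 3 rose and 0 fell in KO and 5 rose and 1 fell in WT, with Hist1h3a higher by 2.71 ± 0.61 in KO and 2.87 ± 0.61 in WT. The H3 rises in KO were thus near the general share. Hist1h2bc stood at 16.3, 8.42, 17.8 and 11.5 CPM in KO lung and 8.29, 2.25, 3.79 and 4.25 CPM in KO naive spleen, and rose by 1.58 ± 0.32 in KO and 1.26 ± 0.31 in WT. Hist2h2be fell by 1.06 ± 0.23 in KO and 1.50 ± 0.23 in WT. Hist1h2ap rose by 0.67 ± 0.22 in KO (adjusted p = 0.016) and differed by 0.02 ± 0.22 in WT (adjusted p = 0.94). Its KO call was lost without KO naive replicate 4 or KO lung replicate 1 and with a length and GC offset, where the adjusted p reached 0.33. Hist3h2a differed by 0.07 ± 0.15 in KO and −0.18 ± 0.14 in WT, neither past the threshold.

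In lung the extended and short ends did not part as they did under IL-15. Of 23 tested genes with extended ends, 12 rose and 1 fell in each genotype. Of 33 with short ends, 15 rose and 1 fell in KO and 11 rose and 1 fell in WT. Over all genes tested 24.3% were higher in KO and 29.2% in WT. Of the 25 S phase genes there, 2 rose and 7 fell in KO, and 4 rose and 5 fell in WT, 9 in each, a smaller part of the list than the 42.4% in KO and 49.2% in WT called over all genes. Rrm2 fell by 1.01 ± 0.16 in KO and 0.89 ± 0.16 in WT, and Ccna2 by 0.97 ± 0.25 and 1.36 ± 0.25. Hinfp, the factor that binds H4 promoters, rose by 1.58 ± 0.27 in KO and 1.38 ± 0.27 in WT, and the gene for the replacement histone H3.3, H3f3b, by 1.19 ± 0.14 and 1.17 ± 0.14. Of 20 processing and decay genes, 6 rose and 7 fell in KO and 5 rose and 11 fell in WT, and Slbp fell by 0.32 ± 0.11 in KO and 0.40 ± 0.11 in WT.

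Markers of other cells also differed between lung and naive libraries. Lyz2, a myeloid gene, reached 573 CPM in KO lung and 115 in WT lung, against at most 7.85 CPM in KO naive and 4.78 in WT naive spleen. For Itgax, of the same list, the highest values were lower in lung. They were 497 CPM in KO lung and 503 in WT lung, against 916 in KO naive and 707 in WT naive spleen. That list summed to 581 to 1108 CPM in KO lung, overlapping the 720 to 933 in KO naive spleen. In WT it summed to 488 to 586 CPM in lung and 499 to 714 in naive spleen. Of its 6 tested genes, 4 rose and 1 fell in KO, and 3 rose and 1 fell in WT. The 6 melanocytic tumour markers summed to 7.15 to 54.3 CPM in KO lung and 0.464 to 1.31 in KO naive spleen, and to 0.923 to 19.3 CPM in WT lung and 0 to 1.36 in WT naive spleen. The 8 granulocyte or mast cell markers summed to 9.14 to 31.4 CPM in KO lung and 0 to 0.801 in KO naive spleen, and to 2.62 to 19.7 CPM in WT lung and 0.306 to 1.45 in WT naive spleen, with Elane and Mcpt4 at 0 in all libraries. Lung epithelial, endothelial and stromal markers summed to 112 to 482 CPM in KO lung and 99.6 to 126 in KO naive spleen, and to 106 to 148 CPM in WT lung and 54.8 to 76.7 in WT naive spleen. In naive spleen most of that sum was Pecam1. The part of all these markers in the histone result was not tested.

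The comparison of KO with WT asks what loss of FcRγ goes with in each state. In naive spleen Hist1h2ap, Hist3h2a and several scarce H1, H2A, H3 and H4 genes were lower in KO, and Hist1h4m had reads in KO alone. Of 48 tested members 9 were called, not a larger share than the 20.3% called over all genes tested. Of the members 1 rose and 8 fell, where 11.1% of all genes tested were higher and 9.22% lower in KO, so the members' calls leaned to lower levels. The H4 gene that fell, Hist1h4n, is a near copy of Hist1h4m, the gene that rose. Their sum was not lower in KO, at 1.37 ± 0.41 CPM against 1.17 ± 0.46 in WT naive spleen (SD, n = 4). The tested members' median log2 change was −0.43, against −0.001 over all genes tested. Genes under 1.5 kb had a median of −0.30 in this comparison and those of 10 kb or more a median of 0.34, and 54 of the 68 members are under 1.5 kb in exon length. With a length and GC offset the members' median was −0.23, with 1 riser and 6 that fell. With a filter at a mean of 1 CPM, 0 rose and 4 fell of 23, and with the naive libraries fitted alone, 1 rose and 2 fell of 26.

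Hist1h2ap stood at 45.6, 42.0, 47.5 and 34.8 CPM in KO naive spleen, against 67.3, 69.5, 114 and 80.8 CPM in WT naive spleen. No KO library reached the lowest WT library. It fell by 1.00 ± 0.20 log2 units (adjusted p = 0.0028, edgeR). Hist3h2a stood at 19.8, 27.7, 25.7 and 24.7 CPM in KO and at 41.1, 40.7, 37.8 and 27.4 CPM in WT naive spleen, where 1 KO library lay just above the lowest WT library. It fell by 0.61 ± 0.16 (adjusted p = 0.012), and its adjusted p was 0.11 with the length and GC offset. Hist1h2ao, the near copy of Hist1h2ap, stood at 0, 0.557, 2.42 and 0.863 CPM in KO and 2.52, 4.23, 3.51 and 3.15 CPM in WT, and fell by 1.74 ± 0.54 (adjusted p = 0.029). The pair summed to 45.6, 42.5, 49.9 and 35.7 CPM in KO and 69.8, 73.7, 117 and 84.0 CPM in WT naive spleen.

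The other genes that fell had few reads. The H2A gene Hist1h2ak stood at 0, 0, 0.043 and 0.119 CPM in KO and 0.391, 0.300, 0 and 0.727 CPM in WT naive spleen, so the groups overlapped. The linker histone gene Hist1h1b and the H3 gene Hist1h3g had 0 counts in the 4 KO naive libraries and 19 and 20.3 counts over the WT libraries, at least 5.11-fold and 5.47-fold lower in KO, with the KO group set at 3 counts in all. Hist1h3h fell with an adjusted p of 0.033 and Hist1h2ak with one of 0.049, by edgeR, both under 1 CPM in every naive library. Of the 8 that fell, 3 stood at 0.5 CPM or more in both groups, namely Hist1h2ap, Hist1h2ao and Hist3h2a. The calls of Hist1h2ak, Hist1h3h and Hist1h4n were lost in 10, 8 and 8 of the alternative fits and those of Hist1h2ao and Hist1h1b in 5 and 1, while those of Hist1h2ap and Hist1h3g held in every alternative that tested them. T cell markers summed to 138 to 206 CPM in KO naive and 101 to 147 in WT naive spleen. Monocyte, macrophage or dendritic cell markers summed to 720 to 933 CPM in KO naive and 499 to 714 in WT naive spleen, and lung epithelial, endothelial and stromal markers to 99.6 to 126 CPM in KO naive and 54.8 to 76.7 in WT naive spleen, neither with overlap. Most of the latter sum was Pecam1, at up to 124 CPM in KO naive and 74.7 in WT naive spleen. Sftpc and Sftpb were at 0 there, and Scgb1a1, Cdh5, Col1a1 and Col3a1 at most at 0.262 CPM. The part of these markers in the result was not tested.

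**Figure D4:**
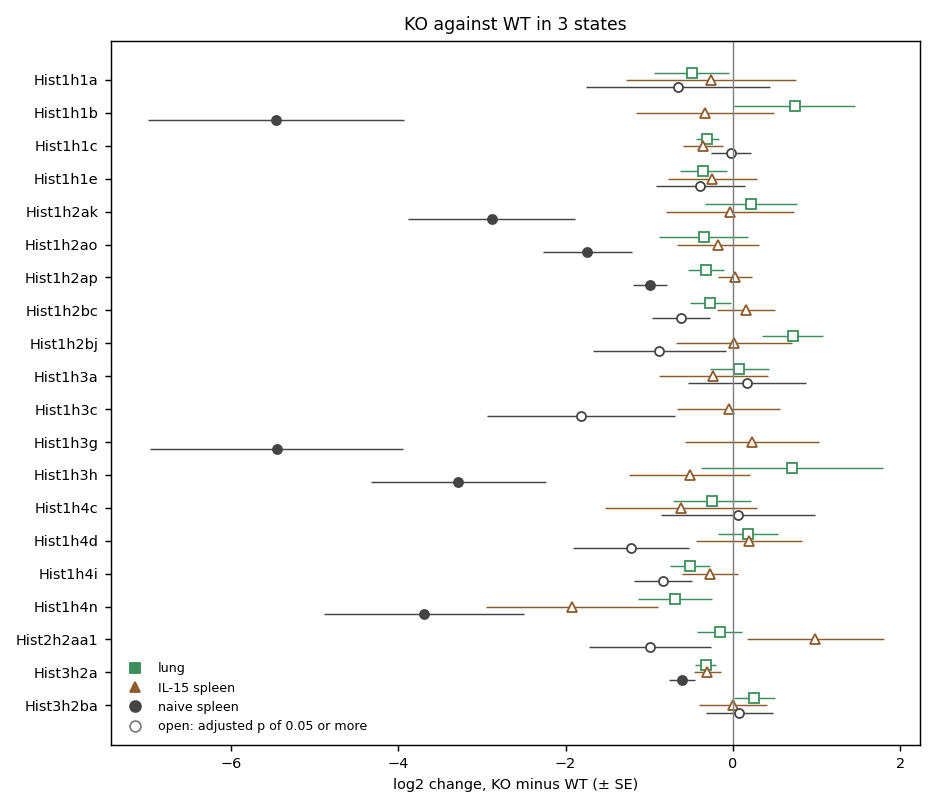
Log2 change of KO against WT from edgeR (x axis, ± standard error) for the named members except Hist1h4m, in lung (squares), IL-15 spleen (triangles) and naive spleen (circles); filled symbols passed an adjusted p of 0.05. The filled symbols are 8 circles, all below 0, and the circles of Hist1h1b and Hist1h3g rest on 0 KO counts, so their size depends on the fit.

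In naive spleen the surrounding lists also held calls, to be read against the 11.1% higher and 9.22% lower in KO over all genes tested and against the length trend above. Of the S phase genes 1 rose and 7 fell of 25, Pole by 1.33 ± 0.25 upwards and Tyms by −0.87 ± 0.21. Of the processing and decay genes 3 rose and 8 fell of 20, with Slbp lower by 0.46 ± 0.13 (adjusted p = 0.017) and the RNA helicase gene Upf1 higher by 1.39 ± 0.17. Of the chaperone genes 7 rose and 4 fell of 21, and of those for histone gene transcription 1 rose and 1 fell of 13. The linker variant gene H1f0 rose by 1.35 ± 0.18 in KO naive spleen.

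Hist1h4m was the 1 member called between genotypes in IL-15 spleen, and again in lung. Of 48 tested members under IL-15 and 42 in lung, 1 rose and 0 fell in each, where 0.135% of all genes tested were called under IL-15 (0.0824% higher and 0.0525% lower in KO) and 0.625% in lung (0.305% higher and 0.320% lower in KO). At an unadjusted p under 0.05 there was 1 member under IL-15 and 3 in lung. Hist1h2ap averaged 260 ± 34.8 CPM in KO and 254 ± 77.5 in WT IL-15 spleen, a log2 change of 0.02 ± 0.20. In lung it averaged 67.5 ± 11.8 CPM in KO and 84.6 ± 29.6 in WT, a change of −0.32 ± 0.21. Hist1h1c averaged 129 ± 14.6 CPM in KO and 160 ± 30.1 in WT lung, a change of −0.31 ± 0.14 with an adjusted p of 0.42. None of the 25 S phase genes was called in either state by edgeR.

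Hist1h4m (ENSMUSG00000069306, chr13:21811746-21812150, plus strand, GRCm38), an H4 gene with a short end, separated the genotypes in all 3 states. It stood at 1.70, 2.04, 2.81 and 5.81 CPM in KO lung, 1.12, 0.619, 1.08 and 0.915 CPM in KO IL-15 spleen and 1.45, 0.782, 1.74 and 1.19 CPM in KO naive spleen. It had 0 counts in all 12 WT libraries. The KO counts summed to 297 in lung, 114 under IL-15 and 107 in naive spleen. With the 4 WT libraries together set at 3 counts, the gene was at least 85.4-fold higher in KO lung, 37.8-fold in KO IL-15 and 44.0-fold in KO naive spleen. The adjusted p was 0.0047 in lung, 0.010 under IL-15 and 0.00056 in naive spleen, by edgeR. The gene had been singled out beforehand for having reads in KO alone. These folds and p-values therefore describe that difference and are no independent support for it. The call under IL-15 was lost in 5 of the alternative fits, with an adjusted p of up to 0.10.

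Hist1h4m has a near copy on the opposite strand of the same chromosome, Hist1h4n (chr13:21831767-21832196). Their annotated transcripts differ at 1 of 402 aligned bases, G36A counted from 1 at the 5′ end of the Hist1h4m transcript, and Hist1h4n runs 28 bases further. The stretch around that base is shown because it is what sets the messages apart, with the differing base in capitals. The 2 genes share 89.8% of the windows of Hist1h4m, so reads can be told apart mainly at that base and at the further bases of Hist1h4n. The strain of the mice is not given, and whether KO and WT mice carry the same sequence at that base was not tested, so the folds above are those of reads assigned to Hist1h4m.
Hist1h4m: agttttgtcttcGtcatgtctggtcgtggc
Hist1h4n: agttttgtcttcAtcatgtctggtcgtggc

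Hist1h4n stood at 5.77, 3.69, 1.29 and 1.58 CPM in KO lung and 7.23, 3.92, 4.56 and 4.58 CPM in WT lung. It stood at 0.154, 0.283, 0 and 1.11 CPM in KO IL-15 and 0.918, 2.48, 1.16 and 1.24 CPM in WT IL-15 spleen, and in naive spleen at 0, 0, 0 and 0.319 CPM in KO and 0.622, 1.50, 0.952 and 1.60 CPM in WT. It was lower in KO naive spleen (adjusted p = 0.036, edgeR) and not called in the other states. The sum of both genes was 6.17 ± 1.60 CPM in KO and 5.07 ± 1.47 in WT lung, 1.32 ± 0.49 in KO and 1.45 ± 0.70 in WT IL-15 spleen, and 1.37 ± 0.41 in KO and 1.17 ± 0.46 in WT naive spleen (SD, n = 4). The summed libraries of KO and WT overlapped in each state.

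**Figure D5:**
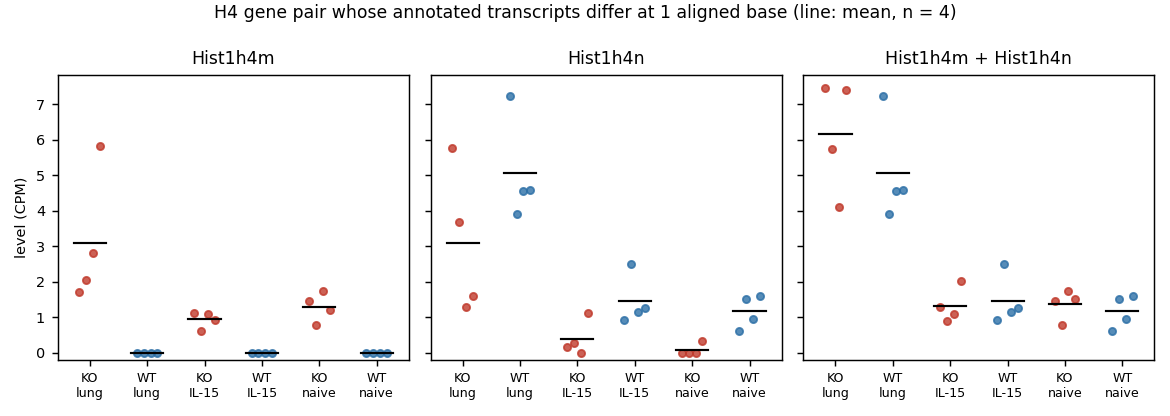
CPM of Hist1h4m, of Hist1h4n and of their sum in every library (points, KO red and WT blue) with the group mean (line, n = 4). Hist1h4m lies at 0 in all WT libraries, Hist1h4n is lower in KO naive spleen, and the sums of KO and WT overlap in each state.

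The difference of the KO effect between states was tested as an interaction. With edgeR 0 members were called of 48 for IL-15 minus naive spleen and 0 of 57 for lung minus naive spleen, where 1.54% of all genes tested were called for IL-15 (0.472% higher and 1.06% lower) and 1.15% for lung (0.168% higher and 0.981% lower). At an unadjusted p under 0.05 there were 8 and 11 members, and DESeq2 called 1 and 2. For Hist1h2ap the KO effect was 1.02 ± 0.29 log2 units higher under IL-15 than in naive spleen (adjusted p = 0.078, edgeR), so the naive difference is not shown to differ from that under IL-15 at this threshold.

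The promoters hold motifs known for this family to a degree that differs by class, and they are given as a description of the genes. A link between motifs and changes in level was not tested. Of 62 members matched to RefSeq promoters (GRCm38.p6, 250 bases before the start, both strands searched), CCAAT was found in 82.3%, against 34.5% of all 27025 promoters in the table. It was in 6 of 6 H1, 18 of 18 H2A, 16 of 16 H2B and 8 of 10 H3 promoters, but in 3 of 12 H4 promoters, or 25%, below the share of all promoters. The letters TATAAA were found in 46.8% against 12.97%. The octamer ATTTGCAT, which OCT1 is known to bind, was found in 7 of 18 H2A and 6 of 16 H2B promoters and in none of the H1, H3 or H4 promoters, against 1.61% of all. The H1 box AAACACA was found in 5 of 6 H1 promoters, against 6.22% of all, with 2 H2A and 2 H2B promoters also holding it. The H1 promoter without it was that of Hist1h1a. A match is a description of the letters and not of a bound site. The Hist1h2ap window is set by the RefSeq start and overlaps the gene span given above, which ends at 21833575. The first 210 bases of 3 such windows follow, 5′ to 3′ in the direction of the gene, with motif letters on either strand in capitals: Hist1h2ap (chr13:21833516-21833725, minus strand) with CCAAT boxes, Hist3h2a (chr11:58954435-58954644, plus strand) with CCAAT boxes and an octamer, and Hist1h1c (chr13:23738557-23738766, plus strand) with an H1 box and a CCAAT box.
Hist1h2ap promoter: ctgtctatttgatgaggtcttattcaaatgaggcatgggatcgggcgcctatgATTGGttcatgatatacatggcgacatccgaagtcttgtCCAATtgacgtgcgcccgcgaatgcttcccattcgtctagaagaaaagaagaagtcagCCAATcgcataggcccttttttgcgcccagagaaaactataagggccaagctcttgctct
Hist3h2a promoter: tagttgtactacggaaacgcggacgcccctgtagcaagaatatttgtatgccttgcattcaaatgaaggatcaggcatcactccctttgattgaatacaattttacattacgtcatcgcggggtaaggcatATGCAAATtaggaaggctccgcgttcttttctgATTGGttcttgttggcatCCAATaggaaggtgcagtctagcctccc
Hist1h1c promoter: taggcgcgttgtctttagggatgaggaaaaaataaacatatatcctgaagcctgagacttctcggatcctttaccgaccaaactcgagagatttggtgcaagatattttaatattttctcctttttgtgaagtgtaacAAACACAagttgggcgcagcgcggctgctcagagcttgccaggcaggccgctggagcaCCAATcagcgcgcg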

How the data were processed

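Expected counts per gene, as deposited, were read for 38215 genes and 24 libraries. The submitters' processing notes name GRCm38 and the tools RSEM 1.2.30, STAR 2.5.2a and cutadapt 1.9, without their settings. Of these values 5.47% were not whole numbers, and all were rounded before testing. Tests used edgeR 4.0.16 in R 4.3.3 with TMM scaling, the filterByExpr filter and the quasi-likelihood test. The p-values were adjusted by Benjamini-Hochberg over all genes of a comparison, at a threshold of 0.05. The 16 spleen libraries were fitted together, the 8 lung libraries together, and all 24 for lung against spleen. A standard error is the size of the log2 change over the square root of its F statistic. Levels per kilobase use the shorter of the gene's span in the table and its GENCODE M21 exon length. Annotation was matched for 61 members by gene ID and 7 by symbol. A floor of 3 counts over a group gives bounds, which cover counting error only.

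Named members were the 3 highest per kilobase in each class, members called between genotypes, the 5 highest with extended ends, and Hist1h4m. Hist1h4m was singled out for its reads in KO alone. Of each surrounding list, up to 3 genes with the smallest p in a comparison could be named. Members, lists and alternatives were chosen with earlier results of these data known. Alternatives were DESeq2 1.42.0, its size factors, other filters, other samples in the fit, a replicate block, a length and GC offset, and each library left out. The fits were tested on simulated data.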

Additional observations from a re-analysis of the deposited data

Results flagged for a closer look

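Of 162 groups of 4 libraries checked, 19 had 1 library standing far from the other 3, where chance alone flags about 1 in 20. WT lung replicate 1, one of the shallow libraries, was the high one for Hist1h1e (31.1 CPM, others 11.6 to 14.5), Hist1h4c (11.9, others 2.58 to 3.38), Hist1h4i (15, others 7.40 to 8.67), Hist2h2aa1 (34.0, others 13.7 to 16.8) and the summed H4 genes (50.1, others 21.1 to 22.8). WT IL-15 replicate 2 was the high one for Hist1h3c (7.24 CPM, others 3.19 to 3.35), the summed H3 genes (26.8, others 11.1 to 13.1) and the summed H4 genes (28.4, others 9.92 to 12.9). In WT naive spleen, replicate 1 stood apart for Hist1h1c (25 CPM, others 12.1 to 13.5) and the summed H1 genes (30.5, others 16.3 to 17.8), and replicate 3 for Hist2h2aa1 (19.3, others 10.8 to 11.8), the summed H2A genes (176, others 128 to 131) and the summed H2B genes (38.1, others 28.9 to 30.4). WT lung replicate 3 was high for Hist1h3h (1.77 CPM, others at most 0.0737), and KO IL-15 replicate 1 for Hist1h4c (1.73, others 0.739 to 0.856).

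Among the named members, 4 of the groups marked in this way had reads in a single library. These were Hist1h3c in KO naive replicate 2 (0.097 CPM), Hist1h3h and Hist1h4n in KO naive replicate 4 (0.129 and 0.319 CPM), and Hist1h3g in KO lung replicate 2 (0.218 CPM).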

How the results depend on the processing

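The 11 calls of named members between genotypes and their 50 calls against naive spleen were followed under each alternative, and 0 reversed. Of these, 4 and 41 held in every alternative that tested the gene, and some genes were not tested under the stricter filters. At a mean of at least 1 CPM the called members were 4 for KO against WT in naive spleen, 0 under IL-15, 16 for lung against naive spleen in KO and 15 in WT, where fewer members were tested. With the compared groups fitted alone they were 3 for naive KO against WT, 19 for lung in KO and 16 in WT. For the difference of the KO effect between IL-15 and naive spleen, DESeq2, no filter and the length and GC offset each called 1 member. Between lung and naive spleen DESeq2 called 2, and leaving out both shallow libraries, an alternative chosen after the data were seen, called 2. The cause was not tested.

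Same-numbered libraries did not deviate together throughout (correlations from −0.236 to 0.284), so the numbers were not used to pair them. Low correlations do not show that the libraries are unpaired. With a replicate block 0 members were called under IL-15 between genotypes, and 7 in naive spleen.

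With each library left out in turn, 6 to 10 members were called for KO against WT in naive spleen, 0 to 1 under IL-15 and 1 to 1 in lung. The IL-15 call was lost without WT replicate 1, 3 or 4 or KO replicate 3. The ranges were 18 to 26 in KO and 20 to 23 in WT for IL-15, 24 to 30 in KO and 19 to 26 in WT for lung, and 0 to 1 and 0 to 2 for the differences of IL-15 and lung from naive spleen. The first rose above 0 without WT naive replicate 1, WT IL-15 replicate 2 or KO naive replicate 3, and the second without WT naive replicate 1, WT lung replicate 1 or WT lung replicate 3. In WT lung replicate 1 a single read is worth 0.118 CPM and in KO naive replicate 1 it is worth 0.0964, so members absent there may only be undetected. The compared groups alone give the same fit for the difference between IL-15 and naive spleen.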
